A study of Mus musculus with 27 samples.

Results

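The interleukin-12 family comprises 4 heterodimeric cytokines assembled from shared chains, and its 5 subunit genes Il12a, Il12b, Il23a, Il27 and Ebi3 were followed across the macrophage responses to 4 Toll-like receptor (TLR) ligands. Members were the array probes whose gene name equals 1 of these symbols, which gave 5 probes, 1 for each of 5 genes, among 55681 probes that carry 32138 gene names. Bone marrow-derived macrophages (BMDM) from wild-type C57BL/6 female mice aged 6 to 8 weeks were grown for 7 days with L929-conditioned medium, a source of M-CSF, and profiled on one-colour Agilent arrays. Naïve cells received no ligand, acute cells received 1 ligand for 4 h, and re-stimulated (tolerized) cells were pretreated with a ligand for 24 h and then given the same ligand again for 4 h. The ligands were LPS at 100 ng/ml (sensed by TLR4), CpG DNA (TLR9) for which the labels give 100 µM and the methods a lower dose, Pam3CSK4 at 100 ng/ml (TLR2) and Poly(I:C) at 10 µg/ml (TLR3). All groups share the same strain and culture, and each pretreated group was tested only with its own ligand. Of 27 arrays in 9 groups, 25 have deposited values. There were 3 in each group except Pam3CSK4 acute and LPS re-stimulated, with 2 each. The sources describe the replicates as independent experiments, as separate mice and as pooled marrow at different places, so p-values measure the spread between these arrays.

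IL-12 is a pair of the p35 chain (Il12a) and the p40 chain (Il12b), IL-23 pairs p40 with the p19 chain (Il23a), IL-27 pairs the p28 chain (Il27) with Ebi3, and IL-35 pairs Ebi3 with p35. Activated macrophages and dendritic cells are the main sources of IL-12, IL-23 and IL-27, which act on T and NK cells through receptors that signal by JAK kinases and STAT factors. A heterodimer needs both of its chains, and an array measures the RNA of each chain but neither the pairing nor the secretion of the protein.

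The RefSeq promoter table (GRCm38.p6) holds 3 of the 5 members, Il12a, Il12b and Ebi3, and the 250 bases before each of their starts are shown. Il12a has 2 annotated starts, at chr3:68690394-68690643 and chr3:68691174-68691423. The Il12b window is chr11:44399813-44400062 and the Ebi3 window is chr17:55952373-55952622, and every window is on the + strand. Il23a and Il27 are not shown. Capitals mark matches to 1 of the 5 motifs searched on both strands.
Il12a start 1: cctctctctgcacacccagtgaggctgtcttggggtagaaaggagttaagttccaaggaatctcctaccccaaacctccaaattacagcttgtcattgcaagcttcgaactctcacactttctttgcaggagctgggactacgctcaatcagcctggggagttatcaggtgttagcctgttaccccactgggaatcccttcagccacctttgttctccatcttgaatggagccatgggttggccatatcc
Il12a start 2: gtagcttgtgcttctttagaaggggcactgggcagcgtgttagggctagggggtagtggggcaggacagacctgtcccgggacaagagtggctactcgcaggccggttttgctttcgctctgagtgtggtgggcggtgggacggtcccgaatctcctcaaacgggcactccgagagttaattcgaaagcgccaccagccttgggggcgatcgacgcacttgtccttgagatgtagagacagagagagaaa
Il12b: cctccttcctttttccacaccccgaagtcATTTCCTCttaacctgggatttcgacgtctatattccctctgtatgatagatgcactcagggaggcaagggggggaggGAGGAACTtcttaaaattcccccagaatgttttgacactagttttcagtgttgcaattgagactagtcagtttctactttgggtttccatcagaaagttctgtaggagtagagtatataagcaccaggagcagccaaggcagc
Ebi3: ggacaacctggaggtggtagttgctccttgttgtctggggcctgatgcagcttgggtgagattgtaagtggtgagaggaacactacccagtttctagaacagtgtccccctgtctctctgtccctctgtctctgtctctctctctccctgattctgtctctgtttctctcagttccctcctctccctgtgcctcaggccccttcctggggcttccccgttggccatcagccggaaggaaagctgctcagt
The motifs were NF-kB as GGGNNNTTC, the interferon-stimulated response element (ISRE) as GAAANNGAA, AP-1 as TGANTCA, C/EBP as TTGCNNAA and PU.1/ETS as GAGGAANT. Il12b held PU.1/ETS matches at 143 to 136 bases before its start on the + strand and at 221 to 214 bases before it on the - strand. None of the 4 windows held the letters of another motif. Of 32851 promoter windows of 300 bases, 7.44% held the PU.1/ETS letters, 14.0% those for NF-kB, 8.56% those for ISRE, 7.81% those for AP-1 and 10.8% those for C/EBP.

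The arrays carried a structure that touches the members. LPS acute was hybridised on slides 1 to 3 with an earlier design file and scanned on days 1 and 2, and every other group was on slides 4 to 6 and scanned on day 3, so the LPS acute stimulus and its slides, scans and design file cannot be told apart. Naïve replicate 3 had 74.9% of spots well above background, against 43.1 to 55.0% on the other 24 arrays. The 6 macrophage markers were well above background in every group, with a summed level (log2 of the summed linear signals) of 18.48 to 19.10. Of 5 neutrophil markers, Ly6g, Ngp and Ltf moved with the replicate number outside LPS acute: Ltf, a granule protein, was at 8.92 to 11.8 on 8 replicate 1 arrays and at 10.3 to 13.1 on 7 replicate 2 arrays, but at 2.09 to 4.41 on 7 replicate 3 arrays. Camp was at 10.6 to 13.2, 10.6 to 13.9 and 6.08 to 10.8 on those arrays and so overlapped, and Elane was at 11.6 to 12.3, 11.4 to 12.7 and 11.1 to 11.9. The summed level of all 5 was 12.7 to 14.4, 12.9 to 15.0 and 11.6 to 12.1. In LPS acute it was 11.53 to 12.14, with Ly6g, Ngp and Ltf above background on none of 3 arrays, and in LPS re-stimulated it was 13.46 to 14.09. Of 7 dendritic cell markers Siglech and Itgax were above background on 25 of 25 arrays, Zbtb46 on 24, Ccr7 on 21, Flt3 on 10, Cd209a on 1 and Xcr1 on 0. Their summed level, in which Siglech (15.21 to 16.35 as a group mean) was the brightest, was 15.0 to 16.9. Zbtb46 had means of 4.05 in naïve, 10.28 in LPS acute and 5.72 in LPS re-stimulated cells and Ccr7 of 6.49, 3.83 and 10.67, and their part in the results was not tested. In such bulk RNA fewer cells of a type and less RNA per cell cannot be told apart.

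**Figure D1:**
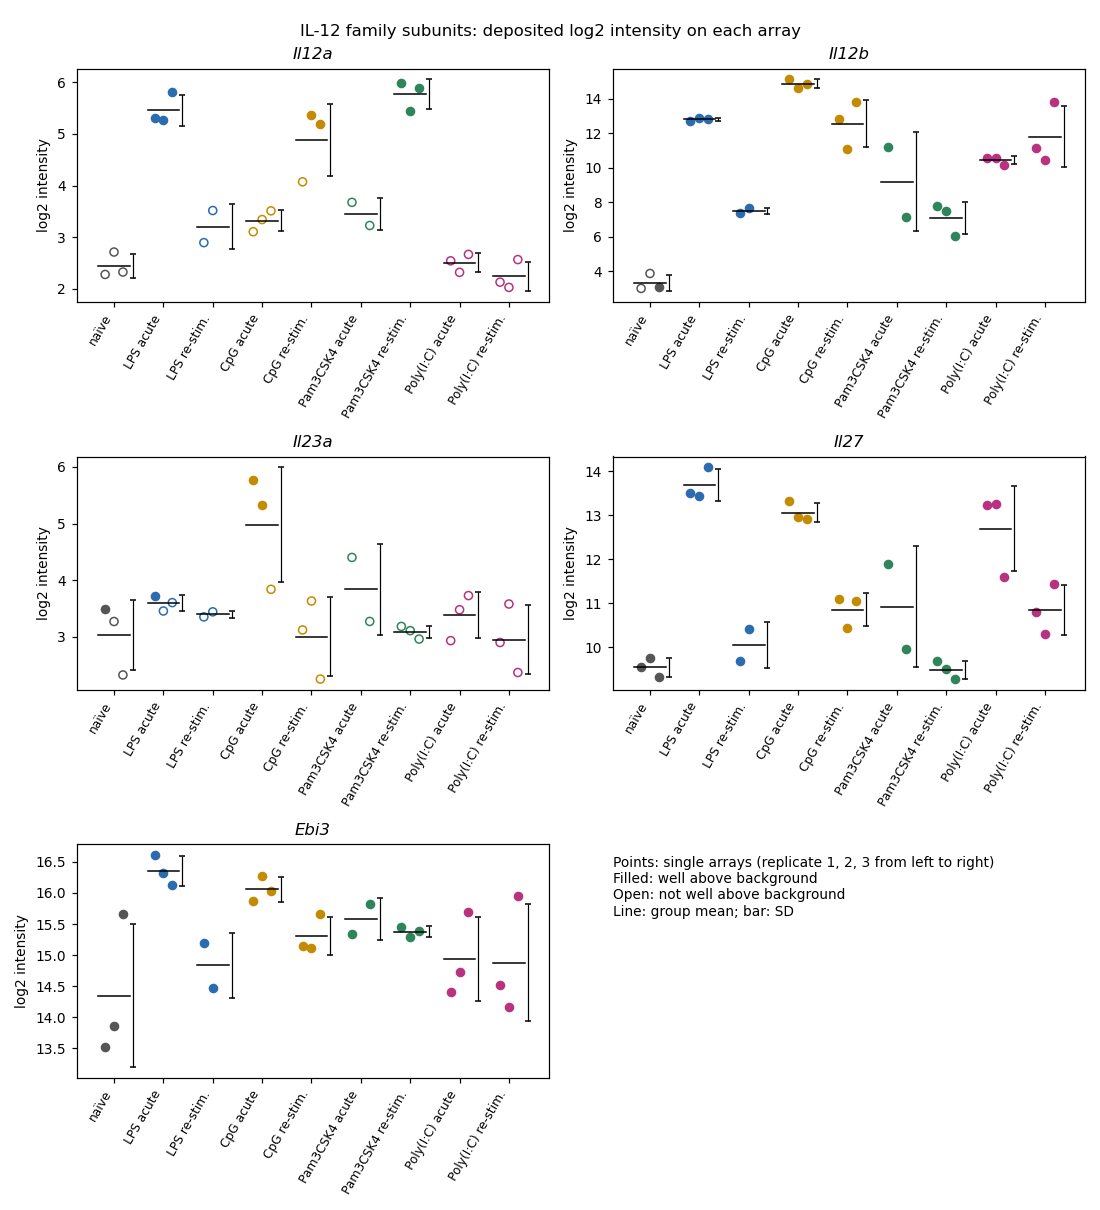
Deposited log2 value of each IL-12 family subunit on each of 25 arrays (vertical axis, log2), by group (horizontal axis). Filled points were well above background and open points were not, lines are group means and bars are SD. Il12b spans 11.55 log2 units between group means, while Ebi3 spans 2.00 units at a high level and Il23a stays near background outside CpG acute.

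The 5 probes read very different parts of the array's range, so each gene is compared only with itself. Il27 and Ebi3 were well above background on 25 of 25 arrays and Il12b on 23. Il12a was well above background on 8 arrays and Il23a on 4. Group means spanned 11.55 log2 units for Il12b, 4.20 for Il27, 3.53 for Il12a, 2.03 for Il23a and 2.00 for Ebi3. No member was saturated on any array. A member was called changed where limma gave an adjusted p under 0.05 and the difference was at least 1.5-fold, among all probes that stood well above background on 2 or more arrays in 1 of the groups compared.

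After a first exposure 4 subunits were called higher in LPS, 2 in CpG, 2 in Poly(I:C) and 0 in Pam3CSK4. In LPS acute against naïve, 4 of the 4 members tested were called, all higher (Il12a, Il12b, Il27 and Ebi3), where 26.5% of all probes tested were called, 13.2% higher. In CpG acute, 2 of 4 members were called higher (Il12b and Il27) where 5.72% of all probes were called, 3.09% higher. In Poly(I:C) acute, 2 of 3 were called higher (Il12b and Il27) where 6.03% of all probes were called, 3.8% higher. In Pam3CSK4 acute 0 of 3 were called, as were 0% of 27841 probes by limma with 2 arrays against 3, although 3458 probes had an unadjusted p under 0.05. With all 9 groups in 1 fit, which pools the spread, Il12b was called there as well. These 4 comparisons, and the 4 of re-stimulated against naïve cells, share the same 3 naïve arrays.

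After a second exposure to the same ligand, 4 subunits were called lower than in acute cells in LPS and 1 in CpG. No group was pretreated and then left without a second dose. The effect of that dose thus cannot be told apart from that of the pretreatment. In LPS re-stimulated against LPS acute, 4 of 4 members tested were called lower, where 34.2% of all probes were called, 17% lower. In CpG 1 of 5 was called, with Il27 lower, where 3.56% of all probes were called, 1.71% lower. In Poly(I:C) 0 of 3 were called against 4.93%. In Pam3CSK4 0 of 4 were called, as were 0% of 25427 probes, of which 3461 had an unadjusted p under 0.05. Il12a ran the other way in CpG and Pam3CSK4, where its re-stimulated arrays were the brighter ones. Against naïve cells, re-stimulated cells remained higher in Il12b for every ligand, and Il12b was the 1 call among 3 members tested in LPS (5.67% of all probes called, 3.28% higher) and in Poly(I:C) (9.03% called, 4.79% higher). CpG re-stimulated cells had 3 of 4 members called higher (13.2% of all probes called, 6.69% higher), and Pam3CSK4 re-stimulated cells had 2 of 4 (5.36% called, 2.61% higher).

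**Figure D2:**
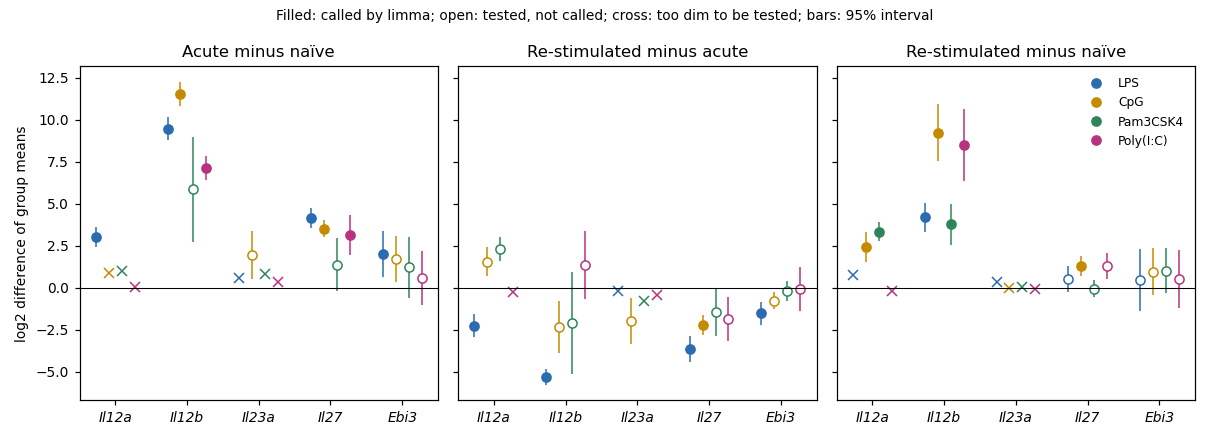
Log2 difference of group means (vertical axis) for each subunit (horizontal axis), with 1 panel each for acute minus naïve, re-stimulated minus acute and re-stimulated minus naïve cells and a colour for each ligand. Filled points were called, open points were tested and not called, crosses were too dim to be tested, and bars are 95% confidence intervals from limma. Il12b lies above 0 in all 8 comparisons with naïve cells, and Il12a lies below 0 on LPS re-stimulation but above 0 on re-stimulation with CpG and Pam3CSK4.

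Il12b encodes p40, the chain shared by IL-12 and IL-23, and had the widest range of the family. Its probe (mm9 chr11:44227121-44227180, + strand) was spotted 10 times, and the SD over those spots was 0.106 to 0.323 log2 units on the 22 stimulated arrays. The naïve arrays were at 3.02, 3.88 and 3.11, and only the last was well above background. CpG acute arrays were at 15.14, 14.64 and 14.88, LPS acute at 12.69, 12.89 and 12.84, and Poly(I:C) acute at 10.57, 10.58 and 10.17. These 3 acute groups did not overlap with each other or with naïve cells. The Pam3CSK4 acute arrays were at 11.23 and 7.16, so replicate 1 lay above every Poly(I:C) acute array and replicate 3 below them. Relative to naïve cells Il12b rose by 11.55 ± 0.30 (SE) log2 units in CpG (adjusted p = 0.000432, limma), by 9.47 ± 0.27 in LPS (adjusted p = 0.000102) and by 7.10 ± 0.29 in Poly(I:C) (adjusted p = 0.00109). In Pam3CSK4 the difference was 5.86 ± 1.22 (adjusted p = 0.288). With 1 of 3 naïve arrays well above background, the size of these rises depended on the background correction: under normexp, which compresses low signals, they were 8.57, 6.51, 4.20 and 3.19, with the same calls.

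On re-stimulation Il12b fell in LPS. LPS re-stimulated arrays were at 7.39 and 7.65, far under the LPS acute range, and the fall of 5.29 ± 0.20 log2 units was 39.0-fold (adjusted p = 0.000171). With the third array, whose values were remade because none were deposited, the fall was 3.53 (adjusted p = 0.181; range over all alternatives 1.62e-09 to 0.181). CpG re-stimulated arrays were at 12.82, 11.09 and 13.79, all under the CpG acute range, with a difference of -2.32 ± 0.64 (adjusted p = 0.100). Pam3CSK4 re-stimulated arrays were at 7.77, 7.50 and 6.06, which overlapped with Pam3CSK4 acute, and the difference was -2.08 (adjusted p = 0.513). Poly(I:C) re-stimulated arrays were at 11.16, 10.45 and 13.81 and overlapped with Poly(I:C) acute, with a difference of 1.37 ± 0.83 (adjusted p = 0.347). The high Poly(I:C) array is replicate 3, and without it the difference was 0.36. On that array Ly6g, Ngp and Ltf were at 6.42, 3.15 and 3.77, and Camp and Elane at 9.48 and 11.1. In other groups, Il12b on replicate 3 was the highest in CpG re-stimulated cells (13.79) and in the middle in CpG acute and naïve cells. It was the lowest in Poly(I:C) acute (10.17), Pam3CSK4 acute (7.16) and Pam3CSK4 re-stimulated cells (6.06). The part of the neutrophil markers in the result was not tested.

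Re-stimulated cells of every ligand kept Il12b above naïve cells with no overlap. The difference from naïve was 9.23 ± 0.69 log2 units in CpG (adjusted p = 0.00346, limma), 8.47 ± 0.88 in Poly(I:C) (adjusted p = 0.00871), 4.19 ± 0.33 in LPS (adjusted p = 0.0118) and 3.78 ± 0.51 in Pam3CSK4 (adjusted p = 0.0246). Under normexp these were 6.28, 5.54, 1.70 and 1.46, with the same calls. With 1 array left out the CpG difference ranged from 8.62, without re-stimulated replicate 3, to 9.97, without replicate 2. The Poly(I:C) difference ranged from 7.47 to 9.15 without the same replicates. As a share of the acute rise in log2 units, which depends on this naïve level, 44.2% was kept in LPS (26.0% under normexp), 79.9% in CpG (73.2%) and 119% in Poly(I:C) (132%). The share in Pam3CSK4 rested on 2 unlike acute arrays, with 47.8% without replicate 3 and 98.6% without replicate 1. The LPS call was lost with all 27 arrays (5.68, adjusted p = 0.167) and without naïve replicate 1 (4.03, adjusted p = 0.0530; range over its alternatives 3.48e-06 to 0.167). With the replicate number as a block the Pam3CSK4 difference missed the threshold (adjusted p = 0.0558), as it did without replicate 1 or 2 of either group (3.44 to 4.05, adjusted p = 0.0789 to 0.105; range over its alternatives 5.83e-07 to 0.105).

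Il12a encodes p35, the chain particular to IL-12 and IL-35, and is the partner that limits IL-12 in many cells. Its probe (mm9 chr3:68502346-68502405, + strand) is poor in G and C, with 10 of 60 bases, and its values stayed low. Naïve arrays were at 2.28, 2.71 and 2.33 and none was well above background. LPS acute arrays were at 5.30, 5.27 and 5.80, all well above background and clear of the naïve range. Acute arrays of the other ligands were not well above background: CpG gave 3.11, 3.34 and 3.51, Pam3CSK4 gave 3.68 and 3.23, and Poly(I:C) gave 2.54, 2.32 and 2.67. Of the acute groups, LPS alone was thus measurable, at least 7.77-fold above naïve cells (3.02 ± 0.24 log2 units, adjusted p = 0.000925, limma). Here and below a group not well above background gives a bound, with its mean taken over the higher of its own signal and the lowest signal among probes well above background on each array. This floor is not the detection limit of the probe itself. Il12a at 4.07 on CpG re-stimulated replicate 1 was still not well above background, so true ratios can be smaller than the bounds. Each bound holds only on the scale of the deposited values, and under normexp this LPS difference was 0.73 log2 units.

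The order of Il12a turned over on re-stimulation. LPS re-stimulated arrays were at 2.90 and 3.52, under the LPS acute range and not well above background, a fall of at least 4.76-fold (-2.25 ± 0.29, adjusted p = 0.00289), although under normexp it was -0.58 and missed the fold threshold. Pam3CSK4 re-stimulated arrays were at 5.98, 5.44 and 5.89, all well above background and in the same range as LPS acute. CpG re-stimulated arrays were at 4.07, 5.36 and 5.20, of which replicates 2 and 3 were well above background. Poly(I:C) re-stimulated arrays, at 2.13, 2.03 and 2.57, overlapped with the naïve range. Against naïve cells Il12a was at least 9.64-fold higher in Pam3CSK4 re-stimulated cells (3.33 ± 0.23, adjusted p = 0.00849) and at least 5.19-fold higher in CpG re-stimulated cells (2.43 ± 0.37, adjusted p = 0.0165). Under normexp the Pam3CSK4 difference was 0.86, with the same call. With the replicate block the Pam3CSK4 difference missed the threshold (adjusted p = 0.0546), and so it did without Pam3CSK4 re-stimulated replicate 1 (3.23, adjusted p = 0.0564; range over its alternatives 3.63e-07 to 0.0564). The CpG call was lost without naïve replicate 1 (2.36, adjusted p = 0.0571; range over its alternatives 5.20e-06 to 0.0571) and under normexp (0.55).

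The rises of Il12a from acute to re-stimulated cells did not pass the 2-group test. The Pam3CSK4 difference was at least 4.99-fold (2.32 ± 0.28, adjusted p = 0.142, limma) and the CpG difference at least 2.94-fold (1.56 ± 0.36, adjusted p = 0.0663). Under normexp these differences were 0.66 and 0.37, again not called. Neither pair of groups overlapped. With the replicate block the CpG difference was called (adjusted p = 0.0497; range over its alternatives 0.000962 to 0.173), and with all 9 groups in 1 fit both were called (adjusted p = 0.000987 for Pam3CSK4, over its alternatives 0.000378 to 0.664, and 0.00299 for CpG). Between arrays of the same slide, re-stimulated minus acute was 0.96, 2.02 and 1.69 in CpG and 2.30 and 2.67 in Pam3CSK4, but -0.41, -0.29 and -0.10 in Poly(I:C). The LPS differences, across different slides, were -2.41 and -1.75.

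**Figure D3:**
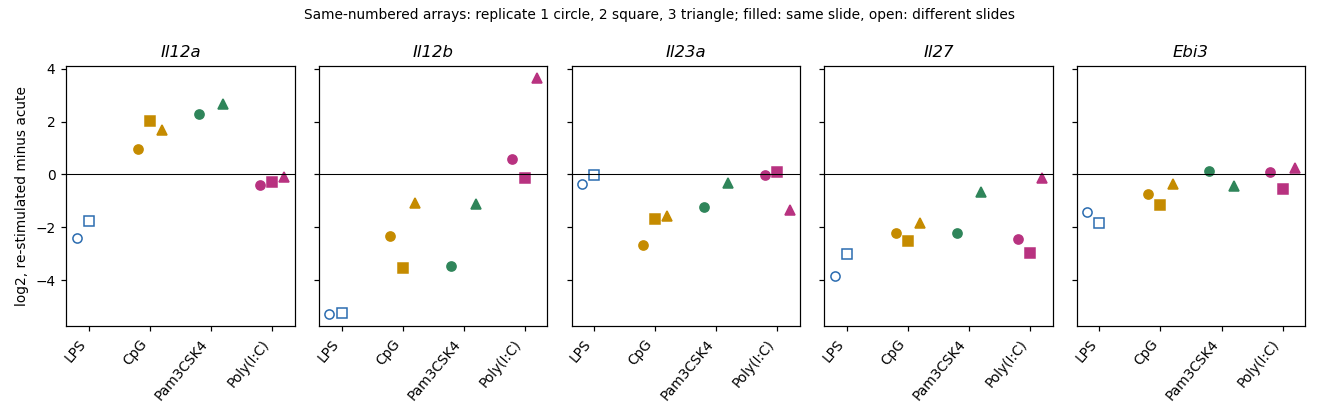
Re-stimulated minus acute log2 value for arrays of the same replicate number (vertical axis, log2), by ligand (horizontal axis), for each subunit. Filled points compare arrays of the same slide and open points, in LPS, compare arrays of different slides. Il12a points lie above 0 in CpG and Pam3CSK4 and below 0 in LPS and Poly(I:C), while Il27 points lie below 0 for every ligand.

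Il23a encodes p19, the chain particular to IL-23. Its probe (mm9 chr10:127733766-127733825, - strand) was well above background on only 4 arrays, CpG acute replicates 1 and 2, LPS acute replicate 1 and naïve replicate 1. CpG acute arrays were at 5.78, 5.33 and 3.84 against naïve arrays at 3.50, 3.27 and 2.33, with no overlap. The difference was 1.95 ± 0.58 (adjusted p = 0.112, limma), and it was called with the replicate block (adjusted p = 0.0498; range over its alternatives 0.000934 to 0.242). CpG re-stimulated arrays were at 3.12, 3.63 and 2.26, all under the CpG acute range and not well above background. That difference was at least 3.44-fold (-1.98 ± 0.57, adjusted p = 0.111), and it was called with the block (adjusted p = 0.0400; range over its alternatives 0.00208 to 0.251) and without CpG acute replicate 3 (-2.55, adjusted p = 0.0280). Under normexp CpG acute differed from naïve cells by only 0.49, and CpG re-stimulated from CpG acute by -0.49, neither called. Arrays of the other stimulated groups ranged from 2.37 to 4.40, and among them and naïve cells Il23a was too dim to be tested.

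Il27 encodes p28, which pairs with Ebi3 to form IL-27. Its probe lies at mm9 chr7:133736137-133736196 on the - strand. Naïve arrays were at 9.54, 9.76 and 9.32. LPS acute arrays were at 13.51, 13.45 and 14.10, CpG acute at 13.31, 12.95 and 12.91, and Poly(I:C) acute at 13.24, 13.26 and 11.58, and all of them lay above every naïve array. The Pam3CSK4 acute arrays were at 11.90 and 9.95. Il27 rose by 4.15 ± 0.25 in LPS (17.7-fold, adjusted p = 0.000468, limma), by 3.52 ± 0.21 in CpG (11.5-fold, adjusted p = 0.00269) and by 3.16 ± 0.49 in Poly(I:C) (8.93-fold, adjusted p = 0.0239). In Pam3CSK4 the difference was 1.39 (adjusted p = 0.443). For Poly(I:C) the threshold was missed without replicate 1 or 2 of either group (2.88 to 3.27, adjusted p = 0.0847 to 0.107; range over its alternatives 4.33e-06 to 0.107).

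On re-stimulation Il27 was lower than in acute cells on average for every ligand. LPS re-stimulated arrays were at 9.68 and 10.42, below the acute range, a 12.4-fold fall (-3.64 ± 0.32, adjusted p = 0.000974). CpG re-stimulated arrays were at 11.08, 10.43 and 11.05, below the acute range, a 4.61-fold fall (-2.20 ± 0.24, adjusted p = 0.0175). Poly(I:C) re-stimulated arrays were at 10.80, 10.29 and 11.44, also below the acute range, with a difference of -1.85 ± 0.53 (adjusted p = 0.0955). Within slides that difference was -2.44, -2.96 and -0.15, and the small value came from replicate 3, where Poly(I:C) acute was itself low at 11.58. Without Poly(I:C) acute replicate 3 the difference was called (-2.41, adjusted p = 0.0281; range over its alternatives 0.00441 to 0.262). Pam3CSK4 re-stimulated arrays, at 9.67, 9.50 and 9.27, were within the range of or below naïve cells, and the difference from acute was -1.44 (adjusted p = 0.359). The CpG call was lost without replicate 1 or 2 of either CpG group (-2.32 to -1.99, adjusted p = 0.0545 to 0.0704; range over its alternatives 0.00226 to 0.0704).

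Of the acute rise of Il27 in log2 units, 12.3% was kept in LPS (3.50% without LPS re-stimulated replicate 2 and 21.2% without replicate 1), 37.4% in CpG and 41.4% in Poly(I:C). CpG re-stimulated cells were still 2.49-fold above naïve cells (1.32 ± 0.25, adjusted p = 0.0249, limma). It missed the threshold with no detection filter (adjusted p = 0.0574), when replicate numbers were blocked (adjusted p = 0.0650) and without replicate 1 or 2 of naïve or 1 or 3 of CpG re-stimulated cells (1.20 to 1.43, adjusted p = 0.0630 to 0.0860; range over its alternatives 0.00567 to 0.0860). LPS re-stimulated cells differed from naïve cells by 0.51 (adjusted p = 0.347) and Poly(I:C) re-stimulated cells by 1.31 (adjusted p = 0.0614).

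Ebi3, the soluble receptor-like chain of IL-27 and IL-35, was high in every group. Its probe lies at mm9 chr17:56096309-56096368 on the + strand. Naïve arrays were at 13.52, 13.86 and 15.66, with replicate 3 about as high as stimulated cells. LPS acute arrays were at 16.61, 16.31 and 16.12 and CpG acute arrays at 15.87, 16.27 and 16.03, all above every naïve array. The rise in LPS was 4.00-fold (2.00 ± 0.56, adjusted p = 0.0435, limma). It missed the threshold with no detection filter (adjusted p = 0.0718), when replicate numbers were blocked (adjusted p = 0.0845), without any 1 LPS acute array and without naïve replicate 1 or 2 (1.59 to 2.11, adjusted p = 0.0939 to 0.126; range over its alternatives 0.000601 to 0.126). By replicate number LPS acute exceeded naïve by 3.09, 2.45 and 0.46, although these arrays share no slide. The last value uses naïve replicate 3, which had 74.9% of spots well above background. Ltf was low on that array and on every LPS acute array, and its part in the result was not tested.

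Calls for Ebi3 depended on naïve replicate 3. In CpG acute the difference was 1.71 ± 0.57 (adjusted p = 0.145), and without naïve replicate 3 it was 2.36 (adjusted p = 0.00637; range over its alternatives 0.00353 to 0.350). Within slides CpG acute exceeded naïve by 2.35, 2.41 and 0.36, Poly(I:C) acute by 0.88, 0.86 and 0.04, and Pam3CSK4 acute by 1.82 and 0.15, so replicate 3 gave the smallest value each time. Ltf was at 2.09 to 4.41 on these replicate 3 arrays, and the part of the neutrophil markers in the result was not tested. Without naïve replicate 3, re-stimulated cells were also called above naïve cells in CpG (1.61, adjusted p = 0.00732; with it 0.95, adjusted p = 0.305) and in Pam3CSK4 (1.69, adjusted p = 0.00771; with it 1.03, adjusted p = 0.303).

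On re-stimulation Ebi3 fell in LPS, with arrays at 15.20 and 14.47 below the acute range (-1.52 ± 0.29, 2.86-fold, adjusted p = 0.0108). The call was lost with all 27 arrays (-1.21, adjusted p = 0.134) and without LPS re-stimulated replicate 2 (-1.15, adjusted p = 0.0656; range over its alternatives 0.00636 to 0.134). CpG re-stimulated arrays were at 15.14, 15.11 and 15.66, all below the CpG acute range, with a difference of -0.75 ± 0.22 (adjusted p = 0.116). Pam3CSK4 acute arrays were at 15.34 and 15.82 and re-stimulated arrays at 15.46, 15.29 and 15.39, which overlapped (-0.20, adjusted p = 0.776). Poly(I:C) acute arrays were at 14.41, 14.72 and 15.70 and re-stimulated arrays at 14.51, 14.17 and 15.95, which overlapped as well (-0.064, adjusted p = 0.955).

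**Figure D4:**
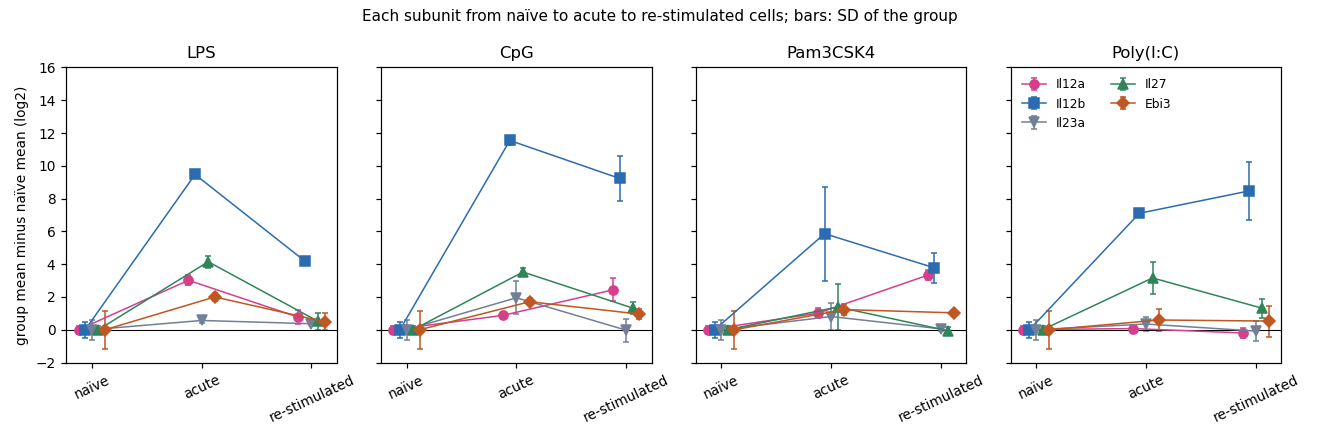
Mean log2 value of each subunit minus its naïve mean (vertical axis, log2) in naïve, acute and re-stimulated cells (horizontal axis), with 1 panel for each ligand and SD as bars. In LPS all 4 subunits that rose fall back on re-stimulation, whereas Il12a climbs from acute to re-stimulated cells in CpG and Pam3CSK4 and Il12b stays high in CpG and Poly(I:C).

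In order of group mean, Il12a ran from Pam3CSK4 re-stimulated (5.77 ± 0.29, SD, n = 3) through LPS acute (5.46 ± 0.30, n = 3) to CpG re-stimulated (4.88 ± 0.70, n = 3), whose neighbours overlap, and then dropped clear of the other 6 groups. Il12b ran from CpG acute (14.88 ± 0.25, n = 3), clear of the next, through LPS acute (12.81 ± 0.10, n = 3) and CpG re-stimulated (12.57 ± 1.37, n = 3) down to Pam3CSK4 re-stimulated (7.11 ± 0.92, n = 3), each of which overlaps with its neighbour, and then dropped clear to naïve (3.34 ± 0.48, n = 3). Il27 was highest in LPS acute (13.68 ± 0.36, n = 3), clear of CpG acute (13.06 ± 0.22, n = 3), and every later neighbour overlaps. Ebi3 was highest in LPS acute (16.35 ± 0.25, n = 3) and CpG acute (16.06 ± 0.20, n = 3), which overlap and lie clear of Pam3CSK4 acute, and the remaining neighbours overlap down to naïve (14.35 ± 1.15, n = 3). Il23a was highest in CpG acute (4.98 ± 1.01, n = 3), which overlaps with Pam3CSK4 acute.

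Most calls between the acute groups of different ligands concerned p35 and p40. Over 6 ligand pairs and 5 genes, 7 differences were called by limma, 6 of them with LPS acute on 1 side. In those 6 the ligand cannot be told apart from the slides, scans and design file of LPS acute. Outside LPS, Il12a was not well above background on any acute array. Il12a was higher in LPS than in CpG (at least 4.40-fold, adjusted p = 0.0223, 6.42% of all probes called), Pam3CSK4 (at least 4.02-fold, adjusted p = 0.0104, 12.1% called) and Poly(I:C) (at least 7.43-fold, adjusted p = 0.00766, 6.73% called). Il12b was 4.21-fold lower in LPS than in CpG (-2.07, adjusted p = 0.0213), 5.16-fold higher in LPS than in Poly(I:C) (2.37, adjusted p = 0.00766) and 21.8-fold higher in CpG than in Poly(I:C) (4.44, adjusted p = 0.0132, 0.173% of all probes called). Il27 was 6.78-fold higher in LPS than in Pam3CSK4 (2.76, adjusted p = 0.0302). No member was called between CpG and Pam3CSK4 (0% of 25396 probes called, 882 with an unadjusted p under 0.05) or between Pam3CSK4 and Poly(I:C) (2.42% called). For Il27 the 95% interval of the CpG minus Pam3CSK4 difference was 0.67 to 3.60, and for Ebi3 it was -0.16 to 1.12.

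With the replicate block 3 of these 7 calls were lost, Il12a and Il12b between LPS and CpG (adjusted p = 0.0616 for each) and Il12b between CpG and Poly(I:C) (adjusted p = 0.0644). Same-numbered LPS and CpG acute arrays share no slide. Their deviations from group means correlated at -0.20 to -0.02, so the replicate number does not pair them. In 1 fit of 9 groups and with slide as a random block, Il12b was called neither between LPS and CpG (adjusted p = 0.104 and 0.140) nor between LPS and Poly(I:C) (adjusted p = 0.0792 and 0.110). With all 27 arrays Il12a and Il27 between LPS and Pam3CSK4 were lost (adjusted p = 0.220 and 0.371), and under normexp so were those of Il12a between LPS and CpG (0.55) and Pam3CSK4 (0.53). The Il12a call between LPS and Poly(I:C) held under normexp, but its size fell from 2.95 to 0.71. The 3 calls lost with the block were also lost when replicate 1 or 2 of either group was left out (adjusted p = 0.0521 to 0.138, with differences of 2.03 to 2.23, -2.20 to -1.95 and 4.32 to 4.57). The Il27 call was lost without any 1 LPS acute array (2.55 to 2.88, adjusted p = 0.0617 to 0.0796). The difference of Il12b between LPS and Pam3CSK4, 3.61 (adjusted p = 0.0769), was called without either Pam3CSK4 acute array, at 5.64 without replicate 1 (adjusted p = 0.00177) and at 1.58 without replicate 3 (adjusted p = 0.0326). Leaving out CpG acute replicate 3 called Il23a lower in LPS (-1.96, adjusted p = 0.00471) and higher in CpG than in Poly(I:C) (2.17, adjusted p = 0.0328), and leaving out Poly(I:C) acute replicate 3 called Ebi3 lower in Poly(I:C) than in LPS (1.79, adjusted p = 0.00927) and CpG (1.49, adjusted p = 0.0427).

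The change on re-stimulation was itself compared between ligands, in 1 fit of all 9 groups. Of 27 such tests over 6 ligand pairs, 5 were called, and 4 of these concern Il12a. Its change in LPS minus that in CpG was -3.81 ± 0.43 log2 units (adjusted p = 0.000257, 7.24% of all probes called), minus that in Pam3CSK4 -4.57 ± 0.45 (adjusted p = 5.62e-05, 8.2% called) and minus that in Poly(I:C) -1.98 ± 0.43 (adjusted p = 0.0188, 4.09% called). Its change in Pam3CSK4 exceeded that in Poly(I:C) by 2.59 ± 0.43 (adjusted p = 0.0174, 0.141% called). The fifth was Il12b, whose change in LPS minus that in Poly(I:C) was -6.65 ± 1.30 (adjusted p = 0.0115). No member was called between CpG and Pam3CSK4 (0.00378% of all probes) or CpG and Poly(I:C) (0.0396%).

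For Il27 the same tests gave no call, with the LPS change minus the Pam3CSK4 change at -2.19 ± 0.72 (adjusted p = 0.0649) and minus the CpG change at -1.43 (adjusted p = 0.203). For Ebi3 the LPS change minus the CpG change was -0.76 (adjusted p = 0.550) and minus the Poly(I:C) change -1.45 (adjusted p = 0.268). The LPS changes use the LPS acute arrays, with their own slides, so every contrast with LPS carries that difference too. Of the 5 calls, those of Il12a between LPS and either CpG or Pam3CSK4 held in all alternatives run, although under normexp their sizes fell to -0.95 and -1.23. The Il12a call between Pam3CSK4 and Poly(I:C) was lost without any 1 of Pam3CSK4 acute replicate 1 or 3, Pam3CSK4 re-stimulated replicate 1, Poly(I:C) acute replicate 1 or 2 and Poly(I:C) re-stimulated replicate 1 (2.36 to 2.81, adjusted p = 0.0505 to 0.0962), and with all 27 arrays (adjusted p = 0.175), normexp (0.72, adjusted p = 0.0530), median scaling (adjusted p = 0.181), no detection filter (adjusted p = 0.0573) and the 4 groups alone (adjusted p = 0.0993). That between LPS and Poly(I:C) was lost without LPS re-stimulated replicate 1 (-1.67, adjusted p = 0.0988), with all 27 arrays (adjusted p = 0.0935), under normexp (-0.51) and under median scaling (adjusted p = 0.125). The Il12b call was lost with all 27 arrays (-4.86, adjusted p = 0.239) and without either LPS re-stimulated array (-6.78 to -6.52, adjusted p = 0.0505 to 0.0586).

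The other genes of the pathway were taken from 6 lists of receptor chains, kinases and STATs, factors that act on the subunit genes, inhibitors of IL-12 production, related cytokines and target genes, and 36 of 37 are on the array. In LPS acute 15 of 31 tested were called, 14 of them higher, with a median difference of 0.93 against -0.0098 over all probes tested, of which 26.5% were called and 13.2% higher. Among these were Socs1, an inhibitor of cytokine signaling (5.96), Irf1, a transcription factor of the IL12 genes (3.48), the kinase Jak2 (2.93) and the related cytokine Il6 (12.89, and 9.61 under normexp). In CpG acute 7 of 28 were called, all higher (5.72% of all probes called, 3.09% higher), but 1 to 10 with 1 array left out. In Poly(I:C) acute 6 of 30 were called higher and 1 lower (6.03% of all probes called, 3.8% higher), or 3 to 8 in all with 1 array left out, with Irf1 at 3.89 and Tbx21, a T-cell factor that IL-12 raises, at 6.02. The Tbx21 call was lost with the replicate block and without replicate 1 or 2 of either group (5.57 to 5.98, adjusted p = 0.0517 to 0.0736). In Pam3CSK4 acute 0 of 28 were called, and 0 to 5 with 1 array left out. On LPS re-stimulation 19 of 31 were called, 16 lower and 3 higher, with a median of -1.04 against -0.017 over all probes, of which 34.2% were called and 17% lower. Irf1 fell by 3.21 in LPS (adjusted p = 0.000591, limma), by 2.15 in CpG (adjusted p = 0.0310) and by 1.79 in Poly(I:C) (adjusted p = 0.0371). The CpG call was lost without replicate 1 or 2 of either group or CpG re-stimulated replicate 3 (adjusted p = 0.0620 to 0.117), and the Poly(I:C) call without replicate 1 or 2 of either group (adjusted p = 0.120 to 0.132). With no detection filter both of these Irf1 calls were lost too.

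Il23r, the receptor chain particular to IL-23, rose on re-stimulation. Its naïve arrays were at 1.84 to 2.54, and 0 of 3 were well above background. LPS acute arrays were at 4.17 to 4.67 and LPS re-stimulated arrays at 8.26 to 8.40, a further rise of 3.98 (adjusted p = 0.000373, limma). It rose from acute to re-stimulated cells by at least 7.30-fold in CpG (adjusted p = 0.0441) and at least 14.0-fold in Poly(I:C) (adjusted p = 0.0440). The CpG call was lost without any 1 array (2.26 to 3.23, adjusted p = 0.0520 to 0.114) and the Poly(I:C) call without any 1 except re-stimulated replicate 3 (3.41 to 4.36, adjusted p = 0.0643 to 0.147). Both calls were also lost under normexp and with no detection filter, and the CpG call without slide 6. The smallest rise over all alternatives was 0.99 log2 units in CpG and 1.44 in Poly(I:C). The LPS call was lost with all 27 arrays (adjusted p = 0.521). Over naïve cells the re-stimulated cells were higher by at least 63.6-fold in LPS, 25.3-fold in Poly(I:C), 16.1-fold in CpG and 9.02-fold in Pam3CSK4, where 2 of 3 arrays were well above background. Of these, the Pam3CSK4 call was lost without naïve replicate 1 or 2 (adjusted p = 0.118 to 0.119), the Poly(I:C) call without naïve replicate 1 or Poly(I:C) re-stimulated replicate 1 or 2 (adjusted p = 0.0533 to 0.0589), and the LPS call with all 27 arrays (adjusted p = 0.382). The Pam3CSK4 call was also lost with the replicate block and with no detection filter. Il27ra, the receptor chain particular to IL-27, fell by at least 5.63-fold on LPS re-stimulation (-2.55, adjusted p = 0.00290). Over its alternatives the Il27ra difference ranged from -2.89 to -0.60 log2 units and was called in each.

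Across the 9 group means, the member patterns were related to a limited degree. As a description, with arrays that share slides and normalization, Il12b and Il27 gave r = 0.778 and Il27 and Ebi3, the chains of IL-27, gave r = 0.707. Il12a and Il12b, the chains of IL-12, gave r = 0.178. Of 20566 gene names compared over the 9 group means, the gene most like Il12b was Spin1 (r = 0.966, and 0.865 over 25 arrays), the one most like Il27 was Mapk1ip1l (r = 0.988, and 0.900 over arrays), and the one most like Il12a was Lca5 (r = 0.991, but 0.559 over arrays). The one most like Il23a was Prss48 (r = 0.938, and 0.332 over arrays). Of named genes C78228 was most like Ebi3 (r = 0.972, and 0.720 over arrays), after 2 probes that carry only a region as a name.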

How the data were processed

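The authors deposited scanner intensity values for 27 arrays and log2 expression values for 25, which they had background-corrected by RMA and quantile-normalized in limma (genome build not given in the sources used here, other than mm9 positions per the file headers). The arrays without deposited values, replicate 2 of Pam3CSK4 acute and replicate 3 of LPS re-stimulated (99.9% and 92.4% of spots well above background), entered only an alternative in which values were remade. Members and gene lists were chosen with earlier results of these data known.

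Deposited log2 values were tested with limma 3.58.1 in R 4.3.3, with the 2 groups only, for probes that 2 or more arrays of 1 group showed well above background, with Benjamini-Hochberg adjustment, an adjusted p under 0.05 and at least 1.5-fold. Changes between ligands came from 1 fit of 9 groups. The test was checked on simulated data with 200 changed probes. Each member has 1 probe, and Il12b spots were averaged. Named genes were all members, the 3 names most correlated with each over group means, of which 1 is printed, and from the pathway lists the 4 called genes with the lowest adjusted p in each comparison, from which examples are printed. Il27ra was added after its values were seen. Array number limits the precision.

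Same-numbered arrays share a slide except in LPS acute. Their deviations from group means correlated at 0.28 to 0.48 for CpG and Poly(I:C) acute against naïve or re-stimulated and at 0.12 to 0.29 for re-stimulated against naïve in CpG, Pam3CSK4 and Poly(I:C), so the numbers pair the samples there, and at 0.01 to 0.12 where LPS was compared with naïve or LPS cells. Between LPS acute and the acute groups of the other ligands the deviations correlated at -0.20 to 0.04. Alternatives were remade values, normexp with an offset of 50, median scaling, no detection filter, 1 fit of 9 groups, slide as a random block, replicate block and each array left out. Leaving out slide 6 was added after the neutrophil markers were seen.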

Additional observations from a re-analysis of the deposited data

Results flagged for a closer look

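The change from acute to re-stimulated cells differed between ligands for 2 subunits in 1 limma fit of 9 groups. For Il12a the LPS change minus the CpG change was -3.81 (adjusted p = 0.000257), minus the Pam3CSK4 change -4.57 (adjusted p = 5.62e-05) and minus the Poly(I:C) change -1.98 (adjusted p = 0.0188), while the Pam3CSK4 change minus the Poly(I:C) change was 2.59 (adjusted p = 0.0174). For Il12b the LPS change minus the Poly(I:C) change was -6.65 (adjusted p = 0.0115). In Il12a the arrays of LPS moved down on both replicate numbers compared, and those of CpG and Pam3CSK4 moved up on 3 of 3 and 2 of 2. Under normexp the Il12a differences were, in the same order, -0.95, -1.23, -0.51 and 0.72, and only the first 2 were called. The slides of LPS acute and the stimulus cannot be told apart.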

How the results depend on the processing

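Of 95 tests of members 32 were called, and 12 of these calls held in every alternative run: Il12a, Il12b and Il27 in LPS acute, Il12b and Il27 in CpG acute, Il12b in Poly(I:C) acute, Il27 on LPS re-stimulation, Il12b in CpG and in Poly(I:C) re-stimulated against naïve cells, Il12a between LPS and Poly(I:C) acute, and the Il12a changes of LPS against CpG and Pam3CSK4. Of 227 alternative counts of members called, 170 stayed within 1.5 times the reported count. The cause of the moves below was not tested. Shares of all probes called are given, here and above, only for the main setting. A move in the count of members or pathway genes thus cannot be told apart from a general change in calls.

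In acute against naïve cells the count of members called moved from 2 in CpG to 4 under median scaling, 1 fit of 9 groups, slide as a random block (consensus correlation 0.220) and without slide 6, and from 0 in Pam3CSK4 to 1, 1, 1 and 2. In re-stimulated against acute cells it moved from 4 in LPS to 2 with all 27 arrays, from 1 in CpG to 4 under median scaling, to 3 in 1 fit and with the slide block and to 2 without slide 6, from 0 in Pam3CSK4 to 1 in 1 fit, 1 with the slide block and 2 without slide 6, and from 0 in Poly(I:C) to 1, 1 and 1 in the same settings. In re-stimulated against naïve cells it moved from 1 in LPS to 0 with all 27 arrays, and from 1 in Poly(I:C) to 2 under normexp, median scaling, 1 fit, the slide block and without slide 6. The 7 calls between acute ligands became 11 with the slide block and 12 without slide 6, and the 5 changes between ligands became 2 with all 27 arrays, 3 under median scaling and 12 without slide 6. Median scaling moved the median of all probes to -0.22 to 0.81 over 18 comparisons, against -0.10 to 0.10 as deposited.

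With the replicate number as a block, the count moved from 1 to 3 on CpG re-stimulation, from 2 to 0 in Pam3CSK4 re-stimulated against naïve cells and from 7 to 4 between acute ligands, and the Il27 change of LPS against Pam3CSK4 became called (-2.29, adjusted p = 0.0475; range over its alternatives 0.0225 to 0.305). The member calls it changed are otherwise given with the results, and no other member call was changed. Of the pathway genes given, Tbx21 in Poly(I:C) acute and Il23r in Pam3CSK4 re-stimulated against naïve cells lost their calls.

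Leaving out 1 array gave 3 to 4 members called in LPS acute, 2 to 3 in CpG, 0 to 0 in Pam3CSK4 and 1 to 2 in Poly(I:C), 3 to 4, 0 to 2, 0 to 0 and 0 to 1 on re-stimulation, and 0 to 1, 1 to 4, 0 to 3 and 1 to 1 in re-stimulated against naïve cells, in the order LPS, CpG, Pam3CSK4 and Poly(I:C). It gave 4 to 9 calls between acute ligands and 3 to 6 between changes. The count of other pathway genes was 0 to 7 (4 with every array) on CpG and 0 to 7 (3) on Poly(I:C) re-stimulation, and in re-stimulated against naïve cells 0 to 12 (6) in LPS, 4 to 14 (5) in CpG, 1 to 12 (4) in Pam3CSK4 and 3 to 11 (8) in Poly(I:C).

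Signs turned only for differences that were not called. Under median scaling Ebi3 became 0.41 on Pam3CSK4 and 0.22 on Poly(I:C) re-stimulation, -0.014 between LPS and CpG acute and 0.19 for the change of Pam3CSK4 against Poly(I:C), and Il27 became 0.45 in Pam3CSK4 re-stimulated against naïve cells. Without slide 6 Ebi3 became 0.037 on Pam3CSK4 re-stimulation and 0.26 for the change of Pam3CSK4 against Poly(I:C), Il27 became -0.12 between CpG and Poly(I:C) acute and 0.32 for their changes, and Il12b became 0.65 between Pam3CSK4 and Poly(I:C) acute and 0.66 for the change of CpG against Pam3CSK4. With 1 array left out, Ebi3 ranged from -0.44 to 0.041 on Pam3CSK4 and -0.60 to 0.31 on Poly(I:C) re-stimulation, from -0.0086 to 1.19 in Poly(I:C) re-stimulated against naïve cells and from -0.51 to 0.40 for the change of Pam3CSK4 against Poly(I:C). Il27 ranged from -0.17 to 0.053 in Pam3CSK4 re-stimulated against naïve cells, from -0.19 to 0.64 between CpG and Poly(I:C) acute, and for the changes from -1.73 to 0.21 (CpG against Pam3CSK4), -0.64 to 0.20 (CpG against Poly(I:C)) and -0.57 to 1.38 (Pam3CSK4 against Poly(I:C)). Il12b ranged from -3.28 to 0.79 between Pam3CSK4 and Poly(I:C) acute and from -2.26 to 1.80 for the change of CpG against Pam3CSK4.

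The alternative of any probe of a gene was not run, since each member has 1 probe. Il12a and Il23a were above background on 8 and 4 of 25 arrays, and normexp shrank the Il12a rise in LPS acute from 3.02 to 0.73. The effects of normexp on the other called Il12a differences, and on Il12b against naïve cells, are given with the results.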
